A study of Mus musculus with 18 samples.

Results

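Sned1, Nrk, Abca8b, Ndnf and E130114P18Rik are 5 of the 14686 genes listed in the deposited expression tables of mouse limb buds. They were chosen by name because their levels were much lower in hindlimb buds of Pitx1 null embryos than in wild type, so the null against wild type values that follow chose them and are given as a description, without a test. The comparison of forelimb with hindlimb in CD1 embryos was not used to choose them, and there they were tested. In the values that chose them, the other members were lower in every null library than in every wild type library at both ages. The null and wild type libraries of Ndnf overlapped at e11.0, so the label strongly Pitx1-dependent describes it at e11.5 only.

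Each of 6 groups had 3 libraries (n = 3). From wild type CD1 embryos there were forelimb buds of age e10.5 and hindlimb buds of age e11.0. From BALB/c embryos there were hindlimb buds only, of e11.0 and e11.5, either Pitx1 wild type or Pitx1 null. Embryos came from timed breedings. The labels leave unsaid whether replicates were separate litters or pools, so a p-value here speaks of the spread among these libraries alone, and that spread may be technical. They also do not say which bases of Pitx1 the null allele lacks. Libraries of e10.5 and e11.0 buds were made by ribosomal RNA depletion and those of e11.5 buds by mRNA enrichment, so age and library type cannot be told apart. In CD1, limb type and age cannot be told apart either. Expression is given in CPM, reads of a gene per 1000000 reads on all listed genes.

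Pitx1 is a homeodomain transcription factor made in the hindlimb bud and almost absent from the forelimb bud. It acts upstream of Tbx4, whose counterpart in the forelimb bud is Tbx5, and is needed for hindlimb skeletal form. Both buds consist of mesenchyme that will form cartilage, tendon and connective tissue, covered by surface ectoderm and invaded by vessels and muscle precursors. Bulk RNA holds all of these, so fewer cells of a type and less RNA per cell cannot be told apart in any value below.

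The 5 genes have different roles. Sned1 encodes a secreted glycoprotein of the extracellular matrix with NIDO, EGF-like and fibronectin type III domains, needed in mouse for craniofacial development. Ndnf encodes a secreted glycoprotein with fibronectin type III domains, named for its neurotrophic activity. Nrk, on the X chromosome, encodes a kinase of the Ste20 family's germinal centre group that limits growth of the placenta in mouse. Abca8b belongs to the A subfamily of ATP-binding cassette transporters, many of which move lipids. E130114P18Rik is annotated as protein-coding and has no role given here.

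In GRCm38 coordinates with the GENCODE M 21 annotation, Sned1 lies on the plus strand at chr1:93235841-93301065, Nrk on the plus strand at chrX:138914430-139010532 and Ndnf on the plus strand at chr6:65671590-65712326. Abca8b lies on the minus strand at chr11:109932190-109995845 and E130114P18Rik on the minus strand at chr4:97568133-97778078. The 5 genes were chosen for lower levels in Pitx1 null hindlimbs, and the bases before their start sites are shown to let their composition be seen beside their values. RefSeq promoter windows of GRCm38.p6 were matched for 4 of the 5, Ndnf being the one without. The 100 bases just before each RefSeq start, 5′ to 3′ on the gene's own strand, with CG pairs in capitals, occupy chr1:93235797-93235896 (plus strand), chrX:138914330-138914429 (plus strand), chr11:109995846-109995945 (minus strand) and chr4:97584592-97584691 (minus strand), in the order printed.
Sned1: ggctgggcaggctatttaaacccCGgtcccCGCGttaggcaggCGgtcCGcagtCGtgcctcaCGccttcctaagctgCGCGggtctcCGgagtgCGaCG
Nrk: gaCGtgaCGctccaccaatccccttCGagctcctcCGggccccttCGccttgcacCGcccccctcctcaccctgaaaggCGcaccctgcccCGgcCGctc
Abca8b: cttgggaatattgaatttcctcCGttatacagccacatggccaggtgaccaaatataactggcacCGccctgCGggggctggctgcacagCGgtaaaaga
E130114P18Rik: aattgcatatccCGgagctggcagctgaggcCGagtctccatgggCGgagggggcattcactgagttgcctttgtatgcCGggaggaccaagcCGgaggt

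Sned1 and Nrk had CG-rich starts, and Abca8b and E130114P18Rik did not. In the 250 bases before the start, Sned1 had 23 CG pairs and Nrk 24, more than 86.7% and 88.0% of 32851 RefSeq promoters had. Abca8b had 6 and E130114P18Rik 7, beside a median of 6 over all promoters. Neither TAATCC, the core bound by bicoid-class homeodomains such as that of Pitx1, nor AGGTGT, a T-box core, was present on either strand of the 4 windows from 250 bases before to 50 after the start. Among all promoters, 7.06% held the first and 13.74% the second. The RefSeq starts of Sned1 and E130114P18Rik lie within the longer GENCODE genes. Bases counted here as before the start thus lie partly (Sned1) or wholly (E130114P18Rik) inside the annotated gene. Other starts were not searched.

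Pitx1 itself was measured first as a check of the labels. It averaged 0.352 ± 0.10 CPM (SD, n = 3) in CD1 forelimb and 209 ± 22.5 CPM in CD1 hindlimb. In null hindlimbs it stood at 21.2 ± 1.81 CPM at e11.0 and 79.8 ± 8.31 CPM at e11.5, which is 17.1% and 23.6% of the wild type means. Reads were thus still counted on the gene in null libraries, and where on the gene they fell is not known from gene totals. Limb mesenchyme markers were present in every library, with a sum over Prrx1, Prrx2, Twist1, Msx1, Msx2, Lhx2 and Meis2 of 807 CPM or more. Tbx5 was at 70.9 to 121 CPM in CD1 forelimb and at most 0.429 CPM in CD1 hindlimb. Libraries held 17.4 to 53.6 M reads on the listed genes (M, 1000000), and 1 read was worth at most 0.0575 CPM. The first principal component held 77.2%, 62.8% and 72.3% of the variance among libraries in CD1, at e11.0 and at e11.5. Replicate 3 was of another run or, in CD1, of none that the labels name. Replicates 1 and 2 shared a run in every group.

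**Figure D1:**
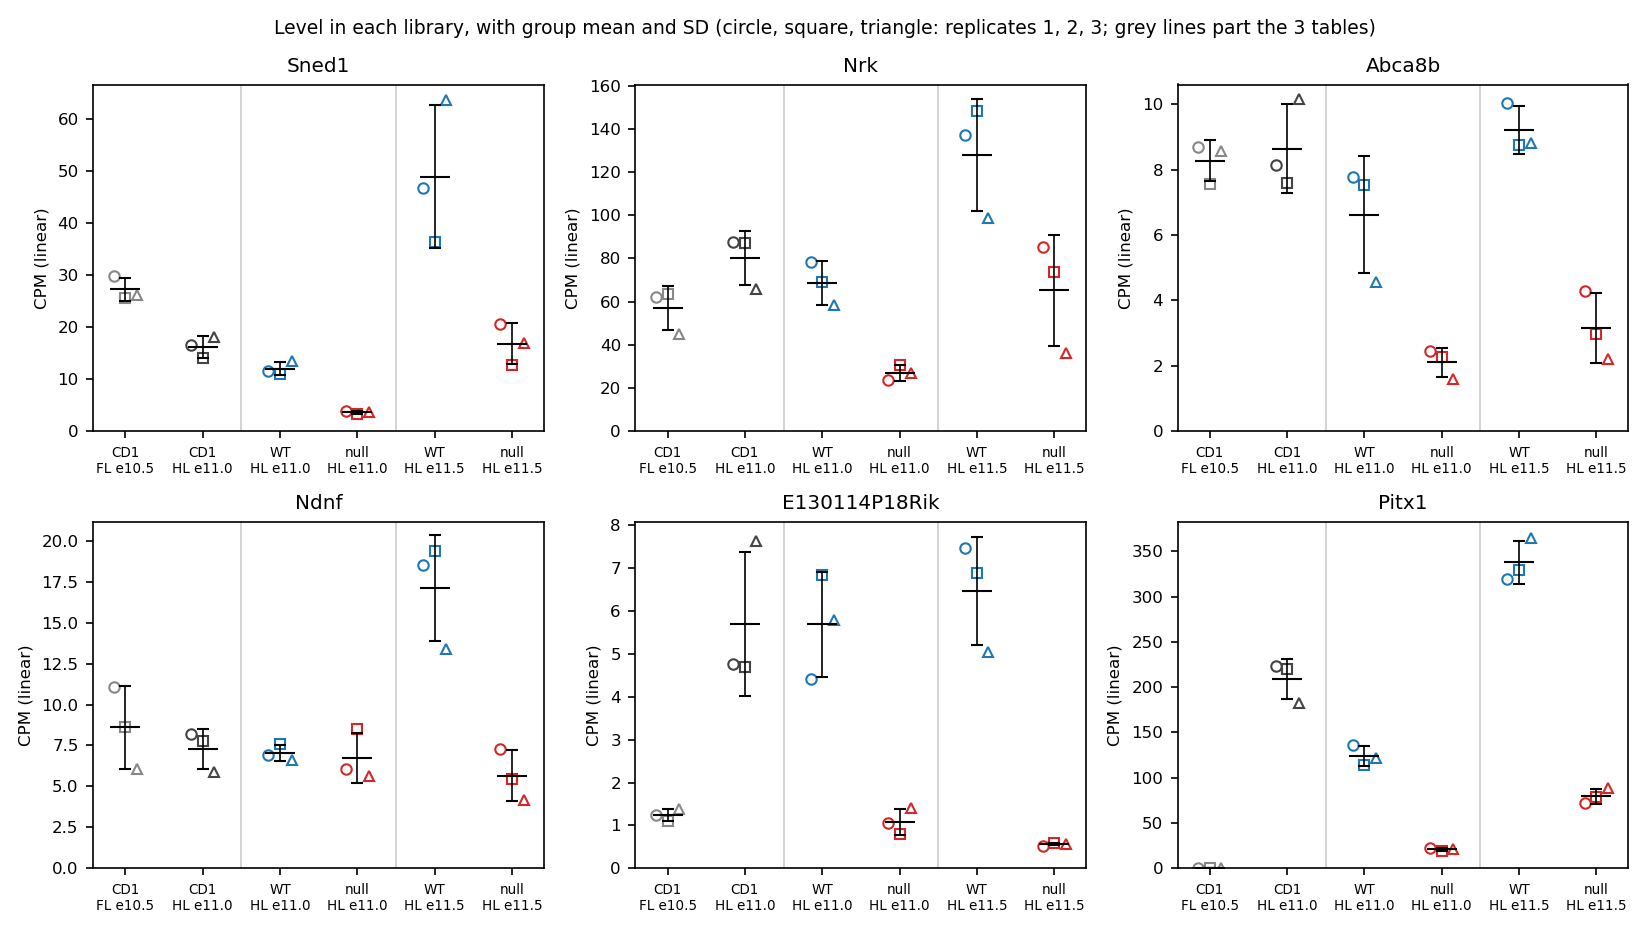
CPM of Sned1, Nrk, Abca8b, Ndnf, E130114P18Rik and Pitx1 (linear axes from 0) in each of the 18 libraries, by group; horizontal bars with whiskers are group means ± SD (n = 3), and marker shapes are replicates. E130114P18Rik in null hindlimbs at e11.5 lies between 0.529 and 0.582 CPM, far under the 5.04 to 7.46 CPM of wild type, whereas the groups of Ndnf at e11.0 overlap.

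In CD1 embryos, 3 of the 5 genes differed between hindlimb and forelimb, in both directions. E130114P18Rik and Nrk were higher in hindlimb, and Sned1 was higher in forelimb. No difference was detected for Abca8b or Ndnf. By limma on log2(CPM + 1) with a term for the run and Benjamini-Hochberg adjustment over all 13540 genes, 5.87% of genes passed an adjusted p of 0.05 in this comparison. Groups without overlap were seen for 11.2% of genes, and for the same 3 of the 5.

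E130114P18Rik was at 1.23, 1.10 and 1.38 CPM in forelimb replicates 1 to 3 and at 4.76, 4.69 and 7.64 CPM in hindlimb. Every hindlimb library was above every forelimb library, and the means, 1.24 ± 0.137 and 5.70 ± 1.68 CPM, were 4.61-fold apart. It rose by 1.56 ± 0.12 (log2 fold change ± SE, limma adjusted p = 7.99e-05), which was position 12 from the highest of 13540 genes. The counts behind these values were 27 to 62 reads in forelimb and 119 to 214 in hindlimb.

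Nrk, the kinase, was at 62.3, 63.3 and 45.1 CPM in forelimb and at 87.8, 87.2 and 65.7 CPM in hindlimb. Replicate 3 was lowest in both groups, and the groups did not overlap. The hindlimb means were 1.41-fold higher (80.2 ± 12.6 against 56.9 ± 10.2 CPM). The change was 0.49 ± 0.05 on the log2 scale, with a limma adjusted p of 0.000234.

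Sned1, the matrix glycoprotein, went the other way, with 29.8, 25.7 and 26.2 CPM in forelimb and 16.5, 13.99 and 18.1 CPM in hindlimb. All forelimb libraries were above all hindlimb libraries. Hindlimb held 59.4% of the forelimb mean (16.2 ± 2.06 against 27.2 ± 2.25 CPM), a log2 change of -0.72 ± 0.09 (limma adjusted p = 0.00165). Its level was thus higher in CD1 forelimb of e10.5 than in CD1 hindlimb of e11.0, where limb type and age cannot be told apart. In BALB/c hindlimbs it was lower in null than in wild type, as given below.

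Abca8b, the transporter, was at 8.70, 7.55 and 8.57 CPM in forelimb and 8.14, 7.61 and 10.2 CPM in hindlimb, and the groups overlapped (log2 change 0.05 ± 0.09, limma adjusted p = 0.797). Ndnf was at 11.1, 8.65 and 6.06 CPM in forelimb and 8.21, 7.76 and 5.89 CPM in hindlimb, again with overlap (-0.19 ± 0.10, limma adjusted p = 0.326). These intervals still allow small differences. In a fit without the run term, which left 13 genes called in all, Sned1, Nrk and E130114P18Rik kept their direction and lost their call, with limma adjusted p of 0.169, 0.847 and 0.0746. Within the run of replicates 1 and 2 alone, the 3 genes passed with limma adjusted p of 0.00671, 0.00408 and 0.00151.

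**Figure D2:**
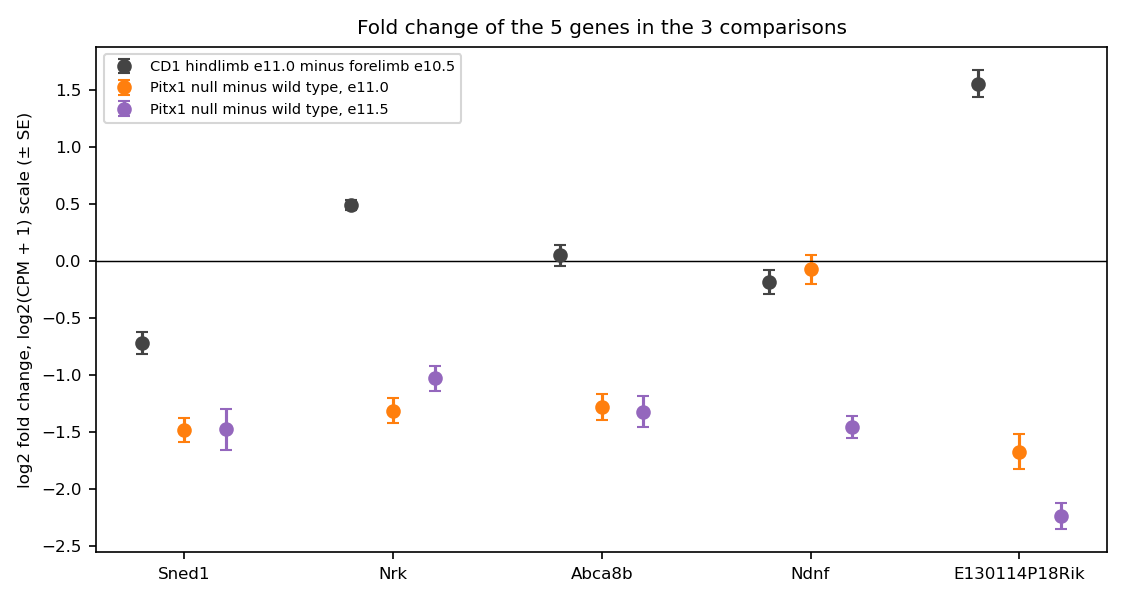
log2 fold change (log2(CPM + 1) scale, points with ± SE bars, n = 3 against 3) of the 5 genes in CD1 hindlimb minus forelimb and, for null minus wild type hindlimb, of both ages. The null values are all below 0 and reach -2.24 for E130114P18Rik, Ndnf at e11.0 is near 0 at -0.07, and in CD1 Sned1 is below 0 while Nrk and E130114P18Rik are above.

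At e11.0, 4 of the 5 genes had every null library below every wild type library, where 13.7% of all 14027 genes did, and Ndnf was the exception. At e11.5 all 5 had, beside 11% of all 13478 genes. These comparisons chose the genes, so the counts are a description. By limma 13.1% of all genes passed at e11.0 (with the replicate number as a block 3442 genes in place of 1843) and 10.8% at e11.5.

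E130114P18Rik stood lowest against wild type at both ages. Wild type libraries held 4.42, 6.85 and 5.78 CPM of it at e11.0, against 1.06, 0.789 and 1.40 CPM in the null libraries. The e11.5 values were 7.46, 6.88 and 5.04 CPM for wild type and 0.529, 0.582 and 0.578 CPM for null. Null hindlimbs thus held 19.1% of the wild type mean at e11.0 and 8.72% at e11.5. The log2 fold changes, -1.67 ± 0.15 and -2.24 ± 0.11, were positions 4 and 3 from the lowest of all genes. Only 16 to 31 reads a library lay behind the null values at e11.5. At so low a level the pseudocount of 1 CPM shrinks the change, and the authors' deposited table gives -2.22 and -3.43.

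Sned1 had 11.6, 10.99 and 13.4 CPM in the wild type libraries of e11.0, against 3.88, 3.35 and 3.67 CPM in the null ones. In those of e11.5 it had 46.7, 36.3 and 63.6 CPM, against 20.6, 12.7 and 17.0 CPM. The null level was under the wild type level in every library of its age, although wild type spread widely at e11.5. Null hindlimbs held 30.3% and 34.3% of the wild type mean, and the log2 fold change was -1.48 at both ages (SE 0.11 at e11.0 and 0.18 at e11.5). It was position 5 from the lowest at e11.0 and 10 at e11.5.

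For Abca8b the wild type libraries of e11.0 gave 7.76, 7.54 and 4.57 CPM and the null libraries 2.44, 2.27 and 1.59 CPM. Those of e11.5 gave 10.05, 8.75 and 8.81 CPM for wild type and 4.30, 2.96 and 2.20 CPM for null. Replicate 3 was low in both genotypes at e11.0, and in same-numbered pairs the null library held 30.1% to 34.7% of the wild type. The null means were 31.7% and 34.3% of wild type, with log2 fold changes of -1.28 ± 0.11 and -1.32 ± 0.14, positions 8 and 17 from the lowest. In CD1 the same transporter showed no detectable difference between limbs.

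Wild type hindlimbs of e11.0 had 78.4, 69.3 and 58.3 CPM of Nrk, and null hindlimbs 23.5, 30.8 and 26.7 CPM. By e11.5 these values were 137, 148 and 98.7 CPM for wild type and 85.3, 73.8 and 36.4 CPM for null. The groups came closer at e11.5, where the highest null library was near the lowest wild type library. Null hindlimbs held 39.3% of the wild type mean at e11.0 and 50.9% at e11.5. The log2 fold changes were -1.31 ± 0.11 and -1.03 ± 0.11, positions 7 and 46 from the lowest.

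Ndnf differed between the ages. At e11.0 the wild type libraries had 6.94, 7.59 and 6.60 CPM and the null libraries 6.06, 8.48 and 5.64 CPM, and the highest library of all was a null one. The null mean was 95.4% of wild type (log2 fold change -0.07 ± 0.13, position 6976 of 14027 from the lowest), with a sign that turned under median-ratio scaling (0.01) and without null replicate 1 (0.03). The e11.5 libraries had 18.5, 19.4 and 13.4 CPM (wild type) and 7.27, 5.48 and 4.20 CPM (null), without overlap. The null mean there was 33.0% of wild type (-1.45 ± 0.10, position 12 from the lowest). Its wild type level was 17.1 ± 3.24 CPM at e11.5 and 7.05 ± 0.505 CPM at e11.0, in tables normalized separately and from libraries of a different type, so the levels of both ages are set side by side only.

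**Figure D3:**
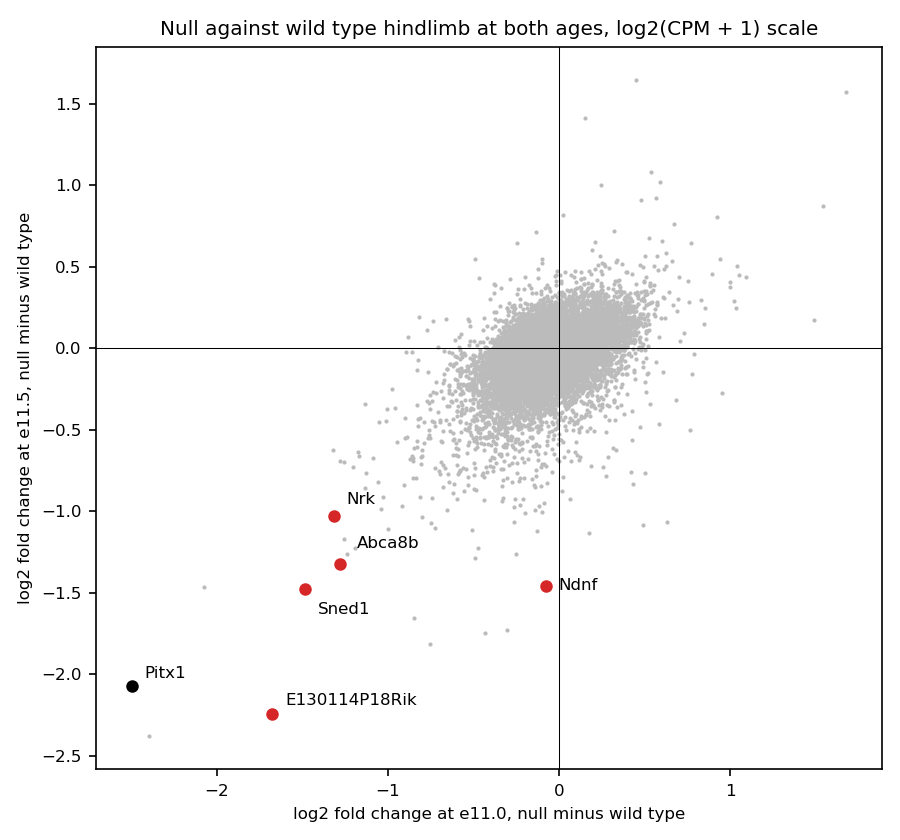
log2 fold change, null minus wild type hindlimb, at e11.5 (y axis) against e11.0 (x axis) on the log2(CPM + 1) scale for the 12935 genes listed at both ages (grey points), with the 5 genes and Pitx1 marked. Sned1, Nrk, Abca8b and E130114P18Rik lie far below 0 on both axes, and Ndnf lies at -0.07 on the x axis and -1.45 on the y axis.

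Levels of different genes were set side by side per kilobase of annotated exon, in CPM per kb, within each group. Nrk was the most abundant of the 5 in every group, from 2.93 ± 0.396 CPM per kb in null hindlimb at e11.0 to 13.9 ± 2.82 in wild type at e11.5. In CD1 forelimb the order was Nrk (6.18 ± 1.11), Sned1 (2.87 ± 0.238), Abca8b (1.11 ± 0.0847), Ndnf (0.850 ± 0.248) and E130114P18Rik (0.604 ± 0.0671). Abca8b, Ndnf and E130114P18Rik lay close there, and the spreads of Ndnf with each of its neighbours touched. In CD1 hindlimb E130114P18Rik, at 2.79 ± 0.823 CPM per kb, stood second.

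In wild type hindlimb at e11.0 the order was Nrk (7.45 ± 1.09), E130114P18Rik (2.78 ± 0.594), Sned1 (1.26 ± 0.132), Abca8b (0.892 ± 0.240) and Ndnf (0.697 ± 0.0499 CPM per kb), with Abca8b within the spread of both its neighbours. In null hindlimb at e11.0 Ndnf, at 0.665 ± 0.152 CPM per kb, stood second, above E130114P18Rik (0.530 ± 0.151), Sned1 (0.383 ± 0.0279) and Abca8b (0.283 ± 0.0611). E130114P18Rik did not differ beyond the spread from Ndnf or from Sned1 in that group. In wild type hindlimb at e11.5 Sned1 reached 5.15 ± 1.45 CPM per kb, beside E130114P18Rik at 3.16 ± 0.616, and their spreads touched. In null hindlimb at e11.5 E130114P18Rik was last, at 0.275 ± 0.0144 CPM per kb.

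Some reads could have come from genes that share sequence. Sned1 shares 1855 exon bases with Mterf4, a mitochondrial gene regulator transcribed from the opposite strand, and 18.8% of its 50-base windows occur there too. The use of strand in counting is not given in the sources used here, and reads in these bases cannot be told apart. By limma Mterf4 passed in no comparison (log2 changes 0.13, 0.19 and 0.07 in CD1, at e11.0 and at e11.5, adjusted p 0.203, 0.139 and 0.477). In the authors' deposited table it was higher in null hindlimb at e11.0 (log2 change 0.28, adjusted p = 0.0295). Abca8b shares 241 exon bases with the antisense transcript Gm11697, which no table lists, and 105 of its 50-base windows with its paralog Abca8a, also listed in none. Of the windows of Nrk, Ndnf and E130114P18Rik, 0.659%, 0.0397% and 0% occurred in other genes.

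Most of the nearest listed genes on the chromosome passed by limma in no comparison in which they were listed. In the GENCODE annotation Nfia, a transcription factor gene, starts head to head with E130114P18Rik and shares 4 exon bases with it. The RefSeq start of E130114P18Rik used above, at position 97584591, lies far from the Nfia start at 97772734. Nfia was lower in null hindlimbs. The wild type mean was 11.4 ± 2.25 CPM and the null mean 7.996 ± 1.01 CPM at e11.0 (-0.45 ± 0.11, limma adjusted p = 0.0304, and 0.0584 under median-ratio scaling). The e11.5 means were 29.0 ± 2.48 and 17.7 ± 7.82 CPM (-0.78 ± 0.18, limma adjusted p = 0.0269). In CD1, where E130114P18Rik was 4.61-fold higher in hindlimb, Nfia did not pass and its value was -0.24 ± 0.08 (limma adjusted p = 0.117). On the other side of E130114P18Rik, Gm12696 passed at e11.0 only, and was higher (0.29 ± 0.08, limma adjusted p = 0.0431).

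The nearest genes named here for the other members passed in no comparison by limma. Abca9, a paralog 104.9 kb from Abca8b, had a wild type mean of 1.14 ± 0.328 CPM and a null mean of 0.812 ± 0.223 CPM at e11.0 (-0.24 ± 0.14, limma adjusted p = 0.24). Its change was -0.30 ± 0.15 at e11.5 (limma adjusted p = 0.203) and in CD1 -0.43 ± 0.12 (limma adjusted p = 0.0612), where it passed in the authors' deposited table (adjusted p = 0.00428). Prkar1a, a regulatory subunit of protein kinase A beyond the other end of Abca8b, was at -0.03 at both ages. Beside Nrk, Fam199x (0.19 ± 0.07 at e11.0, limma adjusted p = 0.1) did not pass, but passed at e11.0 with the replicate number as a block (limma adjusted p = 0.0393), under median-ratio scaling (0.0363) and in the authors' deposited table (0.0223). Its other neighbour Mum1l1 was at -0.07 and -0.09 in null hindlimbs. Beside Ndnf, the prostaglandin D synthase gene Hpgds was at -0.22 ± 0.11 at e11.5 (limma adjusted p = 0.225), where Ndnf itself was at -1.45.

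The genes most like each member were found by the Pearson r of log2(CPM + 1) over all 18 libraries, centred within each table and run, among 12596 genes with a mean of at least 1 CPM in each table. All 3 comparisons enter this measure, and the null contrasts among them chose the members. How these genes differ between groups is thus largely fixed by the way they were found, and r, levels and log2 changes are given as a description, without a test. Closest to Abca8b were Tbx18 (r = 0.989), a T-box transcription factor, Phactr2 (0.981) and Kif27 (0.979), a kinesin. Tbx18 had 141 ± 26.5 CPM in wild type hindlimb at e11.5 and 74.2 ± 29.4 CPM in null, with log2 changes of -1.04 ± 0.08 at e11.0, -0.99 ± 0.12 at e11.5 and -0.09 ± 0.05 in CD1. Kif27 was at -1.24 and -1.26 in null hindlimbs and Phactr2 at -0.59 and -0.76.

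Closest to Nrk were Hsd17b4 (r = 0.979), a peroxisomal enzyme, Galnt5 (0.976), an enzyme of O-glycosylation, and Cxcl12 (0.973), a chemokine. Cxcl12 had 182 ± 22.2 CPM in wild type hindlimb at e11.5 and 100.03 ± 9.08 CPM in null. Its log2 changes were 0.64 ± 0.07 in CD1, -1.13 ± 0.09 at e11.0 and -0.85 ± 0.09 at e11.5. Galnt5 was at -1.06 and -0.82 in null hindlimbs. Hsd17b4 was nearer 0 (-0.29 at e11.0 and -0.24 at e11.5), since r does not measure the size of a change.

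Closest to Sned1 were Wif1 (r = 0.971), a secreted Wnt inhibitor, Jph2 (0.963), a junctophilin, and 4930402H24Rik (0.956). Wif1 had log2 changes of -0.46 ± 0.07 in CD1, -0.83 ± 0.11 at e11.0 and -0.80 ± 0.14 at e11.5. Those of Jph2 were -0.34, -0.48 and -0.58, and those of 4930402H24Rik -0.12, -0.43 and -0.34.

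Closest to E130114P18Rik were Sgce (r = 0.964), a sarcoglycan, Aass (0.954), an enzyme of lysine breakdown, and Rprm (0.949), a cell cycle inhibitor. Their log2 changes in CD1 were 0.40, 0.68 and 0.57. Rprm had 10.4 ± 0.648 CPM in wild type hindlimb at e11.5 and 4.37 ± 1.17 CPM in null (-1.11 ± 0.10). Closest to Ndnf, with lower r than the first of the other members, were Npr2 (0.955), a natriuretic peptide receptor of growing cartilage, Runx1 (0.944) and Col9a3 (0.936), a cartilage collagen. At e11.5 their log2 changes were -0.63, -0.76 and -1.75, and Col9a3 averaged 18.7 ± 1.27 CPM in wild type against 5.07 ± 1.96 CPM in null. At e11.0 they were -0.13, -0.04 and -0.43.

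**Figure D4:**
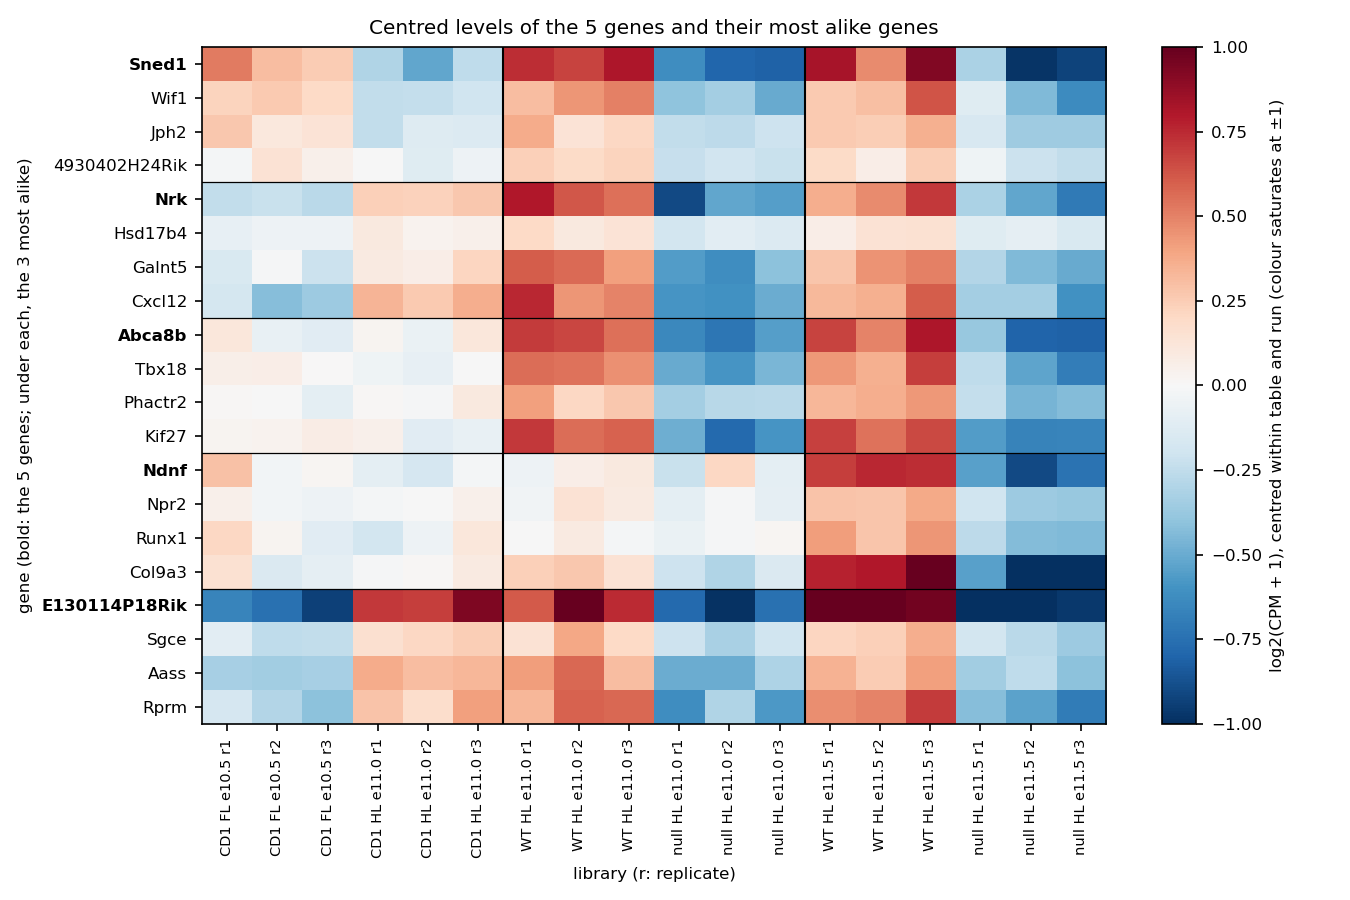
Heat map of log2(CPM + 1), centred within each table and run (red above, blue below, colour saturating at ±1), for the 5 genes (bold) and the 3 genes most like each (rows) in the 18 libraries (columns; FL forelimb, HL hindlimb, WT wild type, r replicate). Ndnf and the 3 genes under it are mostly paler at e11.0 than at e11.5, and the CD1 libraries are red in hindlimb for E130114P18Rik but red in forelimb for Sned1.

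Among the members, Abca8b was closest to Nrk (r = 0.937) and to Sned1 (0.932), and Nrk to E130114P18Rik (0.894) after Abca8b. Ndnf had r from 0.575 to 0.722 with the others, and Sned1 had 0.628 with E130114P18Rik. Such r are common, since 2408 of 12596 genes were more like Sned1 than E130114P18Rik was. E130114P18Rik was the member most like Pitx1 (r = 0.78), and Sned1 was the least (0.082). All points share the same libraries.

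Relatives of the members were read from the same fits. Of the ABCA transporters, 7 beside Abca8b were listed of 15. Over all genes, 5.87% passed by limma in CD1, 13.1% at e11.0 and 10.8% at e11.5. In CD1 Abca4, a retinoid lipid transporter, rose (0.56 ± 0.10, limma adjusted p = 0.00756) and Abca1, a cholesterol exporter, fell (-0.29 ± 0.06, adjusted p = 0.0144). At e11.0 only Abca5 passed, lower (-0.44 ± 0.12, limma adjusted p = 0.036), which passed under none of 3 scalings, and with the replicate block Abca1 passed too (adjusted p = 0.04). At e11.5 Abca4 (-0.68 ± 0.10), Abca1 (-0.60 ± 0.09), Abca2 (-0.48 ± 0.07), Abca5 (-0.44 ± 0.08) and Abca3 (-0.40 ± 0.07) fell, with limma adjusted p from 0.00421 to 0.0114. The list's median log2 change was -0.44 there beside -0.02 over all genes, and Abca6 and Abca8a were listed in no table.

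All 12 other germinal centre kinases of the Ste20 family were listed. By limma 1 passed in CD1, 2 at e11.0 and 2 at e11.5, where 5.87%, 13.1% and 10.8% of all genes passed. Tnik, among the kinases closest to Nrk, was lower in CD1 hindlimb (-0.45 ± 0.08, limma adjusted p = 0.0118), opposite to Nrk, and did not pass in null hindlimbs (-0.01 and -0.11). Map4k4, the most abundant at 351 ± 41.7 CPM in wild type, and Stk25 fell at e11.0 (-0.29 ± 0.08 and -0.30 ± 0.08, limma adjusted p = 0.0431 and 0.0391), though under none of 3 scalings. With the replicate block Mink1 and Stk24 passed as well (adjusted p = 0.0338 and 0.0372). At e11.5 Stk26 and Stk25 fell (-0.43 ± 0.07 and -0.18 ± 0.05, limma adjusted p = 0.00847 and 0.0418), Stk25 neither under trimmed-mean nor under median-ratio scaling (adjusted p = 0.0631 and 0.0724), and Mink1 was at -0.01. The medians of the list, -0.17 at e11.0 and -0.08 at e11.5, stood beside -0.07 and -0.02 over all genes.

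Secreted matrix proteins with fibronectin type III domains went both ways. Of 7 listed beside Sned1 and Ndnf, 2 fell in CD1 hindlimb by limma, where 5.87% of all genes passed. They were Egflam (-0.36 ± 0.07, limma adjusted p = 0.0106), a ligand of dystroglycan, and the fibril-associated collagen Col12a1 (-0.26 ± 0.05, adjusted p = 0.0165). In the authors' deposited table Tnc (-0.93, adjusted p = 0.000435) and Col14a1 (-0.54, adjusted p = 0.0111) were lower there too. At e11.0, where 13.1% of all genes passed, Egflam and Col12a1 fell in null hindlimbs (-0.62 ± 0.13 and -0.59 ± 0.08, limma adjusted p = 0.0169 and 0.00404). Col14a1, a collagen of the same class, rose from 3.38 ± 1.25 to 11.6 ± 2.29 CPM (1.54 ± 0.17, limma adjusted p = 0.00116). Fibronectin itself, Fn1, did not pass at e11.0 (-0.39, limma adjusted p = 0.0768), but passed with the replicate block (adjusted p = 0.0308) and in the authors' deposited table (0.0208).

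At e11.5, where 10.8% of all genes passed by limma, 4 of these 7 fell and Col14a1 rose again (0.87 ± 0.17, limma adjusted p = 0.0152). Tnc, tenascin C, fell from 9.13 ± 1.72 to 3.63 ± 0.829 CPM (-1.13 ± 0.11, limma adjusted p = 0.000829), and Egflam (-0.89 ± 0.09, adjusted p = 0.000943), Col12a1 (-0.66 ± 0.13, adjusted p = 0.014) and Fn1 (-0.34 ± 0.07, adjusted p = 0.0231) fell too. Of the proteins that share the NIDO domain with Sned1, the basement membrane protein Nid2 fell at both ages (-0.83 ± 0.10 and -0.35 ± 0.05, limma adjusted p = 0.00176 and 0.00334). Nid1 fell in CD1 hindlimb (-0.35 ± 0.05, limma adjusted p = 0.00374), did not pass at e11.0 (-0.20 ± 0.12) and rose in null hindlimb at e11.5 (0.44 ± 0.05, adjusted p = 0.00214). Susd2, listed at e11.5 alone, fell (-0.64 ± 0.10, limma adjusted p = 0.00632).

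Integrins are receptors for matrix proteins. By limma 0 of 8 listed integrins passed in CD1, 0 at e11.0 and 2 at e11.5, beside 5.87%, 13.1% and 10.8% of all genes. In CD1 and at e11.0, 1 and 2 had an unadjusted p under 0.05 and 1 and 1 passed in the authors' deposited table. At e11.0 Itga5 passed with the replicate block (-0.38, adjusted p = 0.0156), and Itgb1 under median-ratio scaling (0.26, adjusted p = 0.041). At e11.5 Itgb8 fell (-0.48 ± 0.09, limma adjusted p = 0.0156), and Itga8 fell narrowly (-0.21 ± 0.06, adjusted p = 0.049), but neither with the replicate block (adjusted p = 0.0523) nor under any of 3 scalings. Among Fgf receptors, Fgfr4 fell at e11.5 from 4.38 ± 0.40 to 1.65 ± 0.271 CPM (-1.03 ± 0.11, limma adjusted p = 0.00123). Fgfr1 and Fgfrl1 fell by 0.47 and 0.40 at e11.0 and by 0.19 and 0.22 at e11.5 on the log2 scale. Median-ratio scaling removed all of these calls. Trimmed-mean scaling removed those of Fgfr1 at both ages and of Fgfrl1 at e11.5, and upper-quartile scaling that of Fgfr1 at e11.0. In the authors' deposited table Fgfr1 did not pass at e11.5 (adjusted p = 0.081). Fgfr2 fell in CD1 hindlimb (-0.25 ± 0.04, limma adjusted p = 0.00832).

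Among genes that set hindlimb identity, Tbx4 moved with Pitx1, from 66.1 ± 10.3 to 28.3 ± 4.33 CPM in null hindlimb at e11.0 (-1.19 ± 0.11, limma adjusted p = 0.000295) and from 189 ± 26.8 to 80.5 ± 14.1 CPM at e11.5 (-1.23 ± 0.05, adjusted p = 1.01e-05). In CD1, where Tbx4 was higher in hindlimb by 4.23 on the log2 scale, Hoxc10, Hoxc11, Isl1 and Hoxc9 were higher too, by 2.43 to 4.46. Of these, Hoxc10 fell (-0.43) and Isl1 rose (0.50) in null hindlimb at e11.0, with limma adjusted p of 0.0494 and 0.0203, and under 3 scalings Hoxc10 did not pass.

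Markers of other cell types moved in the same libraries, where 13.1% of all genes passed by limma at e11.0. Counts of markers are given beside such shares and were not tested against them. At e11.0, 7 of 8 endothelial markers fell by limma in null hindlimbs (3 or 4 of 8 under 3 scalings), with a summed level of 182 to 256 CPM in wild type and 102 to 194 CPM in null. All 3 listed markers of muscle precursors fell (20.7 to 27.0 and 5.68 to 13.1 CPM), as did both of tendon precursors (30.8 to 39.9 and 17.1 to 19.8 CPM) and 2 of 4 of cartilage precursors (215 to 394 and 177 to 338 CPM). Of 9 surface ectoderm markers 4 rose, with sums of 312 to 747 CPM in wild type and 411 to 881 CPM in null, and 2 of 7 limb mesenchyme markers fell. Under the 3 scalings 5 ectoderm markers rose, and 1 or 2 mesenchyme markers fell.

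At e11.5, where 10.8% of all genes passed by limma, all 4 listed markers of cartilage precursors fell. Their sums were 825 to 968 CPM in wild type and 414 to 483 CPM in null. All 6 of muscle precursors (52.0 to 63.5 and 35.6 to 38.1 CPM) and both of tendon precursors (69.3 to 71.8 and 25.3 to 47.7 CPM) fell too. Of 7 limb mesenchyme markers 4 rose, and 2 of 8 endothelial and 2 of 6 macrophage markers fell. Under the 3 scalings 5 or 6 of the muscle precursor, 0 to 2 of the endothelial and 1 or 2 of the macrophage markers fell, and 2 or 3 of 9 ectoderm markers rose. In CD1 hindlimb, where 5.87% of all genes passed, 2 of 3 muscle precursor markers and 3 of 7 limb mesenchyme markers fell. So did 1 of 4 cartilage precursor, 1 of 2 tendon precursor and 1 of 9 surface ectoderm markers, and 2 of 6 erythroid markers rose. With the replicate block 1 of 7 mesenchyme and 0 of 9 ectoderm markers fell there, and under the 3 scalings 1 ectoderm marker rose beside the 1 that fell. None of these listed markers was at 0 in any library of its table. The part of these markers in the values of Sned1, Nrk, Abca8b, Ndnf and E130114P18Rik was not tested.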

How the data were processed

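RNA of 18 limb bud libraries, 3 in each of 6 groups, had been sequenced by the authors. The submitters' processing notes name STAR, featureCounts and edgeR and the build GRCm38 (mm10). Versions, settings and the use of strand are not given in the sources used here. The authors deposited 3 tables, 1 per comparison, each normalized alone, with expression as CPM that sums to 1000000 in each library. Per the file headers, the authors added their own log2 fold change, a mean log2 CPM, a likelihood-ratio score, a p-value and an adjusted p-value. All listed genes were above 0.5 CPM in 3 or more libraries, and genes under that were not analysed here. Identifiers matched GENCODE M 21 for 13513 (CD1), 13998 (e11.0) and 13457 (e11.5) genes. Its exons gave lengths, overlaps and 50-base windows.

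From these CPM values, each table was fitted with limma 3.58.1 in R 4.3.3 (limma-trend on log2(CPM + 1), two-sided, terms for group and run of replicates 1 and 2 against the other), leaving 3 residual degrees of freedom. Adjusted p-values are Benjamini-Hochberg over all listed genes, with a threshold of 0.05. A fold change on this scale understates that of low genes. A count test had been planned should the tables hold counts, and the test planned for CPM was used instead. Values were whole multiples of 1 read within 0.1 read for 100% of values, which gave the depths. Without molecular identifiers a read is not an independent molecule, so depth speaks of counting error only. The fit was tested on simulated data.

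Same-numbered libraries deviated together from their group means (r over genes for replicates 1, 2 and 3 was 0.686, 0.798 and 0.939 for CD1, 0.662, 0.637 and 0.855 for e11.0, and 0.733, 0.83 and 0.914 for e11.5), so the numbers, taken from the titles, were treated as pairs in an alternative fit. These values also hold the shared run. Other alternatives were pseudocounts of 0.5 and 0.1 CPM, a mean of at least 1 CPM, no run term, replicates 1 and 2 alone, 3 scalings, the authors' table, and leaving out each library. The members and all gene lists were chosen with earlier results of these data known. Besides the 5 members and Pitx1, genes were named by rule, namely listed relatives that passed (up to 4 per list and comparison by size, and the closest paralogs whatever their values), the 3 most alike genes of each member, and the nearest listed gene on each side. Fn1 and Abca3 at e11.5, Hoxc9 in CD1, the calls under other settings and the marker genes named in the text fall outside it and were chosen after their values were seen. Results of some genes that this rule would name are not reported here.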

Additional observations from a re-analysis of the deposited data

How the results depend on the processing

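Of 240 values of the 5 genes under an alternative, 227 kept their side of the threshold or stayed within 1 SD of the spread between replicates, and none of a called direction was reversed. In CD1, 77 of 80 did, the exceptions being the fit without the run term, where Sned1 (-0.72), Nrk (0.49) and E130114P18Rik (1.56) had adjusted p of 0.169, 0.847 and 0.0746. Part of the 227 was set by the design. In the null comparisons only the log2 change was compared, and 3 alternatives could not move it. They were no run term, the replicate block and the mean of at least 1 CPM. Leaving out either replicate 3 gave the same log2 change as replicates 1 and 2 alone, so these are not separate checks. Over the 15 alternatives fitted with limma, adjusted p ran from 0.000147 to 0.169 for Sned1, from 1.31e-05 to 0.847 for Nrk and from 5.13e-07 to 0.0746 for E130114P18Rik, and the authors' deposited table gives 2.2e-12, 6.56e-17 and 1.36e-37. Leaving out 1 library gave -0.82 to -0.63 for Sned1, 0.47 to 0.50 for Nrk and 1.40 to 1.62 for E130114P18Rik, each past the threshold. Low levels made the null values depend on the pseudocount. With 0.1 CPM Sned1 was at -1.69 and Abca8b at -1.60 at e11.0. E130114P18Rik was at -1.96 and -2.69 with 0.5 CPM and at -2.30 and -3.29 with 0.1 CPM, at e11.0 and e11.5. The authors' deposited table gave -1.67 for Sned1 at e11.0, -1.64 for Abca8b at e11.5 and -2.22 and -3.43 for E130114P18Rik. Counts of genes called (795, 1843 and 1455 in CD1, at e11.0 and at e11.5) depended strongly on the fit. They were 13, 5 and 11 without the run term, 471, 199 and 483 with replicates 1 and 2 alone, and 1689, 2895 and 2644 in the authors' deposited table. Leaving out 1 library gave 394 to 1191, 116 to 5273 and 433 to 2627, the lowest at e11.0 being without wild type replicate 1 and the highest without wild type replicate 2. The replicate block gave 640, 3442 and 1437, and beyond the changes named in the text it added Hoxc11, Prrx2, Perp and Krt8 at e11.0 and Sox10 at e11.5, and removed Twist1, Meis2 and Trp63 in CD1. Scaling moved the split of higher against lower calls. At e11.0 it was 664 to 1179 as deposited, 1067 to 516 by trimmed mean, 1326 to 403 by median ratio and 984 to 567 by upper quartile. At e11.5 it was 382 to 1073, 649 to 925, 743 to 919 and 417 to 1082. No scaling turned the direction of a called gene in the lists, and the causes were not tested. In the thinnest data, E130114P18Rik in null hindlimbs, 16 to 62 reads a library limit precision.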
